A study of Brassica napus with 27 samples.

Results

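The first day after a move from long days (LD) to short days (SD) was examined in leaves of wild-type oilseed rape, Brassica napus cultivar Westar, by RNA sequencing. The 3 libraries titled as controls at SD1, 1 day after the move, were compared with the 3 titled as controls at LD(SD0), at the move itself. These are 6 of the 27 libraries of the study, which also holds wild-type leaves 2 days after the move (SD2) and 2 CRISPR/Cas9 lines at the same stages, 3 libraries in each of 9 groups. Seedlings had spent 5 days on MS medium and 2 weeks on soil under LD of 16 h light and 8 h dark. The growth description gives 16 h light and 8 h dark for SD as well, so the length of the short day is not given by the labels.

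The wild-type plants were labelled WT, with no mutation named. The bnaa06fah line, called the single line here, is mutant in BnaA06FAH, and the bnafah line, called the double line, in BnaA06FAH and BnaC05FAH. Both are described as transgene-free, and the labels call them knock-down in one place and null in another. Replicates are numbered but not said to be separate plants, so the p-values measure the spread between these libraries, which may be technical. No LD leaves were taken on the day of the SD1 harvest, so plant age and sampling day cannot be told apart from the move. The sample details used here hold no hour of harvest, and its part in the differences was not tested.

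Plants read day length with photoreceptors and the circadian clock, and a shorter photoperiod also lowers the daily income of fixed carbon. Nitrate reductase is a well-known target of light and sugar signals in leaves: it reduces nitrate to nitrite, the first step of nitrogen assimilation, and glutamine synthetase later fixes the ammonium that results. The phenylpropanoid pathway, which begins at phenylalanine ammonia-lyase, and its flavonoid branch, which begins at chalcone synthase, are likewise light-responsive in leaves.

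Library totals ran from 49700646 to 58862542 counts, and 70611 to 72183 genes had at least 1 count. Wild-type LD replicate 1 stood apart from its group. Its log2 counts correlated at 0.956 and 0.954 with the other LD libraries and at 0.957 to 0.962 with the SD1 libraries, while the other LD libraries correlated at 0.974 with each other. On the first principal component, which held 57.5% of the variance of the 5000 most variable genes, it lay at -2.51, between the other LD libraries at 63.9 and 74.6 and the SD1 libraries at -61.3 to -32.8. Medians of gene lists, and some results of single genes, are therefore given with and without it. It was singled out for lying toward the SD1 libraries, so leaving it out favours larger differences and more calls. A gene that passes only without it is therefore no added support for a change. The 10 most counted genes took 6.13% to 6.47% of counts at LD and 5.30% to 5.51% at SD1. Plastid-encoded genes whose symbol occurs only once took 0.00154% to 0.00285% and 0.00317% to 0.00380%. In both measures the groups did not overlap, and the exact two-sided permutation p of 0.1 is the smallest that 3 libraries against 3 can give. The plastid share leaves out genes with repeated symbols, such as the ribosomal gene rrn16S. The first rrn16S entry held 4069, 3973 and 2846 counts at LD and 3449, 3064 and 3139 at SD1, with overlap. The share of all plastid-encoded genes is therefore not given. The defining nuclear genes of leaf mesophyll carry no name in the table, so the leaf label was not checked against them. Plastid-encoded rbcL, the large subunit of Rubisco, was found in all 6 libraries at 3.16 to 5.22 counts-per-million (CPM) on TMM-scaled library sizes. Of 20 genes on a seed list 3 passed the filter on low counts, as did 3 of 8 on a flower list.

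Of 72039 genes tested, 81 passed the threshold of an adjusted p under 0.05 between SD1 and LD, or 0.112%. Among them 57 were higher at SD1 (0.0791%) and 24 were lower (0.0333%). At an unadjusted p under 0.05 the numbers were 5636 higher (7.82%) and 5096 lower (7.07%), and DESeq2 called 1315 higher (1.9%) and 1039 lower (1.5%) of 69194 genes. Adjusted p was 0.04 or more for 38 of the 57 higher genes and 16 of the 24 lower genes, so most calls lay just inside the threshold. The count turned on single libraries. Without wild-type LD replicate 1 it became 949 higher (1.32%) and 442 lower (0.614%), and all 81 genes stayed among them. Leaving out LD replicate 2 left 4 higher and 1 lower, and leaving out LD replicate 3 left 3 and 2. Leaving out SD1 replicate 1, 2 or 3 left 16, 10 or 4 higher and 4, 2 or 0 lower. At the last of these, 0 lower genes by edgeR stands beside 5096 at an unadjusted p under 0.05 and 1039 by DESeq2 with all 6 libraries.

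**Figure D1:**
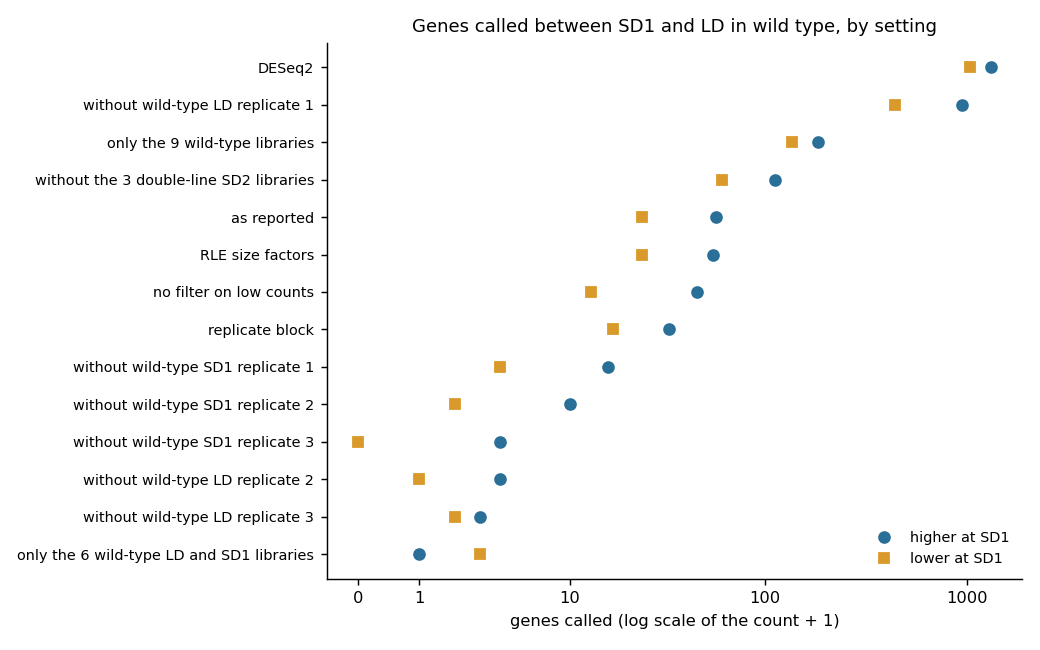
Number of genes called between SD1 and LD in wild-type leaves at an adjusted p under 0.05, on a log axis of the count + 1, for each way of fitting the data. Circles are genes higher at SD1 and squares genes lower. The count as reported is 57 higher and 24 lower, and the points run from 1 to 1315 higher and from 0 to 1039 lower.

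Among the 81 genes 1 has a name, NIA2, and the others are known here only by their identifiers, with no role given. All 57 higher genes had every SD1 library above every LD library, which held for 10.4% of all tested genes, and 23 of the 24 lower genes had the reverse, which held for 11.5%. LOC106435199 is the exception: its LD replicate 1, at 2.62 CPM, lay beside SD1 values of 1.28 to 2.65 CPM. The higher genes ran from 0.72 to 8.61 in log2 fold change with a median of 2.17, and the lower genes from -7.09 to -0.85 with a median of -1.48. Called genes were of modest abundance. In the higher of the 2 groups the median was 4.96 CPM for the genes that rose and 9.94 CPM for those that fell.

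LOC106446990 was the only gene called under all 13 alternative settings. It and LOC111206432 were called whichever of the 6 libraries was left out, which held for none of the genes that fell. It stood at 4.16, 2.80 and 3.37 CPM at LD and at 17.04, 25.2 and 22.0 CPM at SD1. Every SD1 library was at least several times above every LD library, and the change was 6.23-fold, with a log2 value of 2.64 ± 0.34 (SE, adjusted p = 0.00395). Without LD replicate 1 the log2 value was 2.80 (adjusted p = 0.00637). LOC106446989, the next gene along in the RefSeq gene order of the Da-Ae assembly, was the most abundant called gene, at 10.9 ± 1.72 CPM at LD and 58.3 ± 16.1 CPM at SD1 (SD, n = 3). It rose by 2.42 ± 0.36 in log2 (adjusted p = 0.0111), and its counts over the 27 libraries correlated at 0.981 with those of its neighbour. Reads shared between adjacent or similar genes could tie such values together, and that was not tested.

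LOC106401121 rose with them, from 10.3, 7.11 and 7.27 CPM to 32.0, 54.7 and 36.6 CPM, a log2 change of 2.32 ± 0.39 (adjusted p = 0.0313). In each of these 3 genes SD1 replicate 2 was the highest library. LOC106396121 showed the tightest SD1 group of the abundant genes. It was at 17.9, 14.7 and 9.06 CPM at LD and at 35.4, 35.9 and 34.8 CPM at SD1, a log2 change of 1.35 ± 0.23 (adjusted p = 0.0297). LOC106358464 went from 16.9 ± 1.21 to 30.3 ± 4.92 CPM, the smallest change of the abundant called genes, at 0.84 ± 0.16 in log2 (adjusted p = 0.0434).

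LOC111206432 shared the smallest adjusted p of the higher genes, 0.00395, and was called under 12 of the 13 settings. Its SD1 libraries, at 3.71, 3.89 and 3.06 CPM, all lay above its LD libraries, at 0.944, 1.10 and 0.438 CPM. Among the lower genes LOC106443971 had the smallest adjusted p, 0.00448. It stood at 25.0, 26.5 and 27.6 CPM at LD and at 14.3, 13.3 and 12.7 CPM at SD1. Its replicates lay within a narrow band in both groups, and the log2 change was -0.97 ± 0.13. LOC106445061, the most abundant of the genes that fell, halved in the same way, from 37.8, 43.6 and 41.5 CPM to 19.6, 20.1 and 20.9 CPM (log2 change -1.02 ± 0.18, adjusted p = 0.0394).

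LOC106397587 and LOC106438690 had the steepest falls among genes above 1 CPM. The first stood at 5.38, 17.8 and 31.7 CPM at LD and at 0.769, 0.346 and 0.846 CPM at SD1, which is 28.0-fold lower (log2 change -4.81 ± 0.90, adjusted p = 0.0423). The second stood at 7.12, 18.3 and 37.9 CPM and then at 0.826, 0.708 and 1.03 CPM (log2 change -4.63 ± 0.88, adjusted p = 0.0428). Their LD libraries differed several-fold among themselves in the same order, with replicate 1 lowest in both. Counts of the pair correlated at 0.983 over the 27 libraries, so the 2 entries may share reads, and neither is an independent observation of the other. LOC106372540 was the called gene of largest rise among those above 1 CPM. It had no count in LD replicates 1 and 2 and 0.0761 CPM in LD replicate 3, against 4.21, 7.15 and 1.46 CPM at SD1 (log2 change 7.26 ± 1.45, adjusted p = 0.0498). LOC111201964 owed most of its SD1 mean to 1 library: SD1 replicate 2 held 5.15 CPM and the other SD1 libraries 0.576 and 0.774 CPM. All of them lay above the LD libraries, which held at most 0.0761 CPM.

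There were 6 higher genes with no count in any wild-type LD library. LOC106431368 had 29, 70 and 50 counts at SD1, at least 15.4-fold higher than a floor of 3 counts per library. For BNAC05G38490D the SD1 libraries held 19, 29 and 32 counts (at least 8.30-fold higher), and for LOC106410824 they held 25, 41 and 58 (at least 12.9-fold higher). The others, LOC106353281, LOC106376318 and LOC106397377, were at least 10.3-fold, 6.68-fold and 5.61-fold higher. In the mutant lines 5 of the 6 genes had counts in every LD library, and LOC106431368 lay at 0.429 to 0.906 CPM in the single line and 0.655 to 0.926 CPM in the double line. LOC106353281 is the exception, with no count in single-line LD replicates 1 and 3 and 0.188 CPM in replicate 2. LOC106382488 ran the other way, with 17, 15 and 16 counts at LD, none at SD1 and 72, 40 and 31 at SD2, at least 5.65-fold lower at SD1. Counts this low leave wide errors, and the genes of this paragraph, like the 2 of smallest adjusted p, were chosen after their values were seen.

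NIA2 (LOC106368948), a nitrate reductase gene, was the one called gene with a name. It stood at 10.2, 7.91 and 9.53 CPM at LD and at 1.31, 1.43 and 0.937 CPM at SD1. All SD1 libraries lay far below all LD libraries, a 7.51-fold fall with a log2 change of -2.91 ± 0.56 (adjusted p = 0.0431). It was called under 7 of the 13 settings, and leaving out single libraries moved its log2 change only from -3.04 to -2.75 but its adjusted p from 0.0223, without LD replicate 1, to 0.206; it missed the threshold when any of the other 5 libraries was left out. LOC111210558, also called, held nearly the same counts, within 50 of NIA2 in each of the 27 libraries, so the pair may count the same reads, and the level of either gene is uncertain. NIA1 (LOC106400358), the other nitrate reductase gene, was far more abundant per unit length: the authors' FPKM values at LD were 46.6 to 92.1 for NIA1 and 2.23 to 2.76 for NIA2. NIA1 was at 332, 214 and 159 CPM at LD and 199, 59.4 and 94.0 CPM at SD1. Its groups overlapped, and its log2 value of -1.001 ± 0.54 did not pass (adjusted p = 0.399).

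Glutamine synthetase genes also lay mostly lower without passing the test. GLN1.3 (LOC106435967), a cytosolic form, stood at 67.7, 92.1 and 102 CPM at LD and at 39.0, 49.8 and 52.6 CPM at SD1. Its groups did not overlap, and its log2 value was -0.89 ± 0.22 (adjusted p = 0.0848). Without LD replicate 1 it passed, at -1.05 (adjusted p = 0.0285). The gln gene LOC106424972, the most abundant of the list, was at 652, 921 and 797 CPM and then at 624, 468 and 588 CPM, with a log2 value of -0.50 ± 0.24 (adjusted p = 0.326). Of the 8 nitrogen genes 1 fell, beside 0.0333% of all tested genes, and 0 rose. At an unadjusted p under 0.05 there were 4, all on the lower side, beside 7.07% of all tested genes. DESeq2 called 2 lower, beside 1.5%. The median log2 value of the 8 was -0.69, and -0.64 without LD replicate 1, beside 0.00 over all tested genes and 0.03 over the 475 named genes tested.

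**Figure D2:**
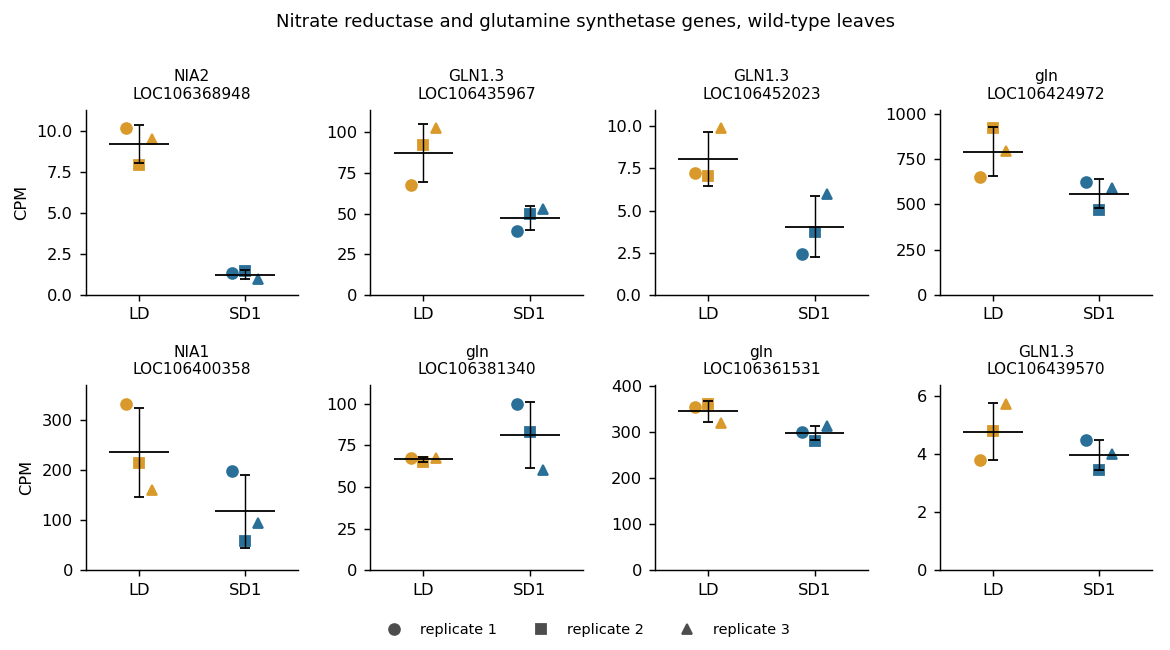
CPM on TMM-scaled library sizes for the 8 nitrate reductase and glutamine synthetase genes, by stage, in wild-type leaves. Points are libraries, shaped by replicate, and lines and bars are the mean and SD of 3 libraries. NIA2 is at 7.91 to 10.2 CPM at LD and 0.937 to 1.43 CPM at SD1, and it is the only one of the 8 that passed the threshold.

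Among phenylpropanoid genes 7 of 11 had negative log2 values, as did 4 of 5 flavonoid enzyme and transporter genes, beside 49.8% of all tested genes. None of them passed the threshold. CHSB1 (LOC106367233), a chalcone synthase gene, stood at 43.5, 23.3 and 53.0 CPM at LD and at 3.32, 9.48 and 3.80 CPM at SD1. No library overlapped, but both groups were spread over more than 2-fold, and the log2 value was -2.85 ± 0.83 (adjusted p = 0.123; 0.0229 with DESeq2). Chs (LOC106372253), a second chalcone synthase gene that may share reads with the first, was at 21.7, 10.5 and 31.6 CPM and then at 1.92, 5.84 and 2.14 CPM (log2 value -2.68 ± 0.85, adjusted p = 0.147). F3H (LOC106367722), the flavanone hydroxylase of the next steps, went from 18.4 ± 7.47 to 6.999 ± 3.49 CPM (log2 value -1.40 ± 0.43, adjusted p = 0.141), with overlap. In all 3 genes LD replicate 2 was the lowest LD library and SD1 replicate 2 the highest SD1 library. Of the 5 flavonoid genes tested edgeR called 0. At an unadjusted p under 0.05 there were 4, all lower, beside 7.07% of all tested genes. DESeq2 called 4 lower, beside 1.5%. The median log2 value was -2.68, and -2.67 without LD replicate 1. The positive member was TT12, a transporter gene, at 0.70, from 13, 6 and 5 counts at LD and 0, 43 and 0 at SD1. The remaining negative member was DFR (LOC106447075), at -6.84, from 32, 0 and 10 counts at LD and none at SD1. DFR is among the 4 lower genes, and both it and TT12 rest on few counts. Of the 4 flavonoid regulators tested 2 had positive values and 1 a negative one, beside 49.4% and 49.8% of all tested genes. Their median was 0.24 (0.39 without LD replicate 1), with 0 called by edgeR or DESeq2. Beside 7.82% of all tested genes, 1 was higher at an unadjusted p under 0.05. That gene was TTG1-1 (LOC106348252), at 14.7, 11.7 and 10.05 CPM at LD and 18.1, 24.4 and 15.5 CPM at SD1 (log2 value 0.67 ± 0.25, adjusted p = 0.216).

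Upstream of the flavonoid branch, PAL-BN-1 (LOC106391500), a phenylalanine ammonia-lyase gene, was at 28.6, 30.1 and 37.3 CPM at LD and 19.0, 17.9 and 16.3 CPM at SD1. PAL1-2 (LOC106388514), of the same family, was at 6.86, 7.44 and 10.8 CPM and then at 2.31, 4.03 and 3.82 CPM. C4H (LOC106348398), the hydroxylase of the second step, was at 8.14, 10.3 and 11.4 CPM and then at 6.23, 6.34 and 4.65 CPM. All 3 had groups that did not overlap, with log2 values of -0.85, -1.31 and -0.79 and adjusted p-values of 0.215, 0.151 and 0.176. PAL2-1 (LOC106371449) went the other way, from 2.33 ± 0.34 to 2.97 ± 0.42 CPM, with overlap. The other positive members were BNF5H1, BNF5H2 and 1 of the 2 CCR2 genes, LOC106429710, at log2 values of 0.07, 0.29 and 1.36, the last from a gene at or under 0.234 CPM in all 6 libraries. The list of 11 genes had 0 called by edgeR and 0 by DESeq2. Lower at an unadjusted p under 0.05 were 4, beside 7.07% of all tested genes. Among these 4 was the other CCR2 gene, LOC106381558, with a log2 value of -5.73. It rests on 8, 0 and 11 counts at LD and none at SD1, so it too is a gene of very low counts. The median log2 value of the list was -0.78 (-0.92 without LD replicate 1).

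**Figure D3:**
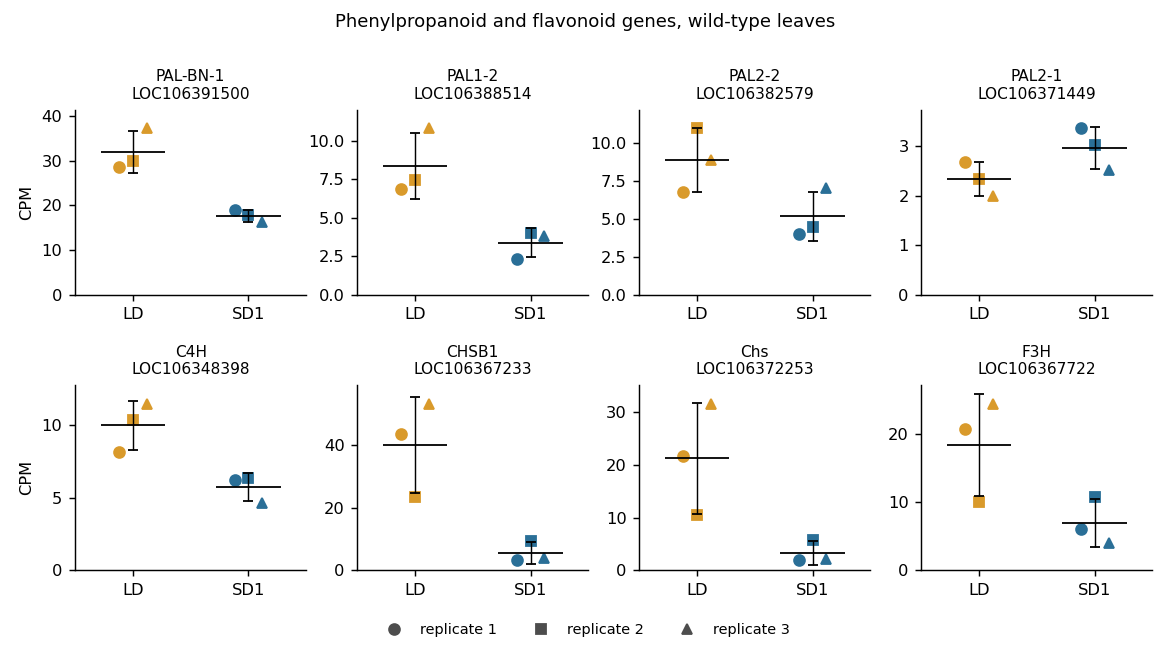
CPM on TMM-scaled library sizes for phenylpropanoid genes (PAL and C4H) and flavonoid genes (CHSB1, Chs, F3H), by stage, in wild-type leaves. Points are libraries, shaped by replicate, and lines and bars are the mean and SD of 3 libraries. CHSB1 lies at 23.3 to 53.0 CPM at LD and 3.32 to 9.48 CPM at SD1, and none of the genes shown passed the threshold.

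Of the secondary cell wall genes, 4 served as vascular markers, and none was called. The cellulose synthases CesA4, CesA7 and CesA8 build the wall of xylem vessels. CesA4.2 (LOC106410419) stood at 7.26, 7.46 and 7.57 CPM at LD and at 2.44, 2.97 and 4.27 CPM at SD1 (log2 value -1.20 ± 0.39, adjusted p = 0.159). CesA4.1 (LOC106411008) was at 4.44 ± 0.77 and 1.67 ± 0.99 CPM, CesA8.1 (LOC106415724) at 9.19 ± 1.81 and 4.43 ± 1.48 CPM, and CesA7.1 (LOC106386336) at 7.25 ± 1.15 and 4.96 ± 0.72 CPM. All 4 markers were lower at SD1 without overlap, beside 11.5% of all tested genes. Their summed level was 24.4 to 30.7 CPM at LD and 10.2 to 18.4 CPM at SD1, and their median log2 value was -1.13 (-1.11 without LD replicate 1). In whole leaves, fewer cells of a type and less RNA per cell cannot be told apart, and the part of vascular tissue in the other results was not tested. Of all 9 cellulose synthases edgeR and DESeq2 called 0, 2 were lower at an unadjusted p under 0.05, beside 7.07% of all tested genes, and 6 were lower without overlap, beside 11.5%. The median was -0.55 (-0.42 without LD replicate 1). CesA1.2 (LOC106423367), of the primary wall set, was at 65.1, 56.4 and 65.0 CPM and then at 43.9, 43.0 and 47.1 CPM (log2 value -0.48 ± 0.24, adjusted p = 0.362).

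All 8 genes of glucosinolate synthesis and breakdown, the mustard-oil defence of this plant family, had negative log2 values, beside 49.8% of all tested genes. Their median was -1.02 (-1.14 without LD replicate 1). None was called by edgeR or DESeq2, and 1 was lower at an unadjusted p under 0.05, beside 7.07% of all tested genes. Lower without overlap were 0 of the 8, beside 11.5% of all tested genes. In the single and double lines the median of this list was positive, at 0.34 and 0.52. Myr2.Bn1 (LOC106382545), a myrosinase gene, was at 267, 682 and 878 CPM at LD and 273, 203 and 353 CPM at SD1. LD replicate 1 lay among the SD1 libraries, and the log2 value was -1.14 ± 0.45 (adjusted p = 0.235), or -1.50 without that library (adjusted p = 0.0779). MyAP1 (LOC106348442), a myrosinase-associated protein gene, was at 83.4, 82.9 and 196 CPM and then at 18.1, 14.1 and 129 CPM, so 1 library in each group was high. Of the 3 flower genes tested, Ful (LOC106382186), a MADS-box gene that also acts outside the flower, was at 6.23, 6.38 and 5.02 CPM at LD and 1.33, 4.51 and 1.85 CPM at SD1 (log2 value -1.19 ± 0.38, adjusted p = 0.152). AG1 was at or under 0.182 CPM and AP34 at or under 0.362 CPM in all 6 libraries.

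The list of chaperones and a heat shock factor was split, with 2 of 4 log2 values positive and 2 negative. None was called by edgeR, and DESeq2 called 1 higher, beside 1.9% of all tested genes. At an unadjusted p under 0.05, 2 were higher and 1 lower, beside 7.82% and 7.07%. HsfA4a (LOC106440325), a heat shock transcription factor gene, had the smallest adjusted p of the 4. It was at 4.72, 2.38 and 3.01 CPM at LD and at 11.8, 8.27 and 8.70 CPM at SD1, without overlap, with a log2 value of 1.51 ± 0.41 (adjusted p = 0.1004). Without LD replicate 1 it passed, at 1.83 (adjusted p = 0.0462). Hsc70 (LOC106361615), a chaperone gene, was at 267, 169 and 200 CPM and then at 511, 332 and 251 CPM, with overlap (log2 value 0.78 ± 0.35, adjusted p = 0.298). Crt1 (LOC106415836), a calreticulin gene, lay the other way, at 29.1, 42.8 and 52.3 CPM at LD and 25.9, 11.7 and 24.0 CPM at SD1, without overlap (log2 value -1.01 ± 0.46, adjusted p = 0.308). BiP, a chaperone of the endoplasmic reticulum, had a log2 value of -0.18.

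Mitogen-activated protein kinases relay stress and developmental signals by phosphorylation. MPK3 (LOC106405163), known for its part in immune signalling, was at 15.6, 11.6 and 26.3 CPM at LD and at 31.2, 43.6 and 38.1 CPM at SD1 (log2 value 1.08 ± 0.31, adjusted p = 0.116; 0.0315 with DESeq2). MPK3.1 (LOC106347512), a copy that may share its reads, had a log2 value of 0.94 ± 0.31. Raf23 (LOC106437717), a kinase of the upper tier, was at 15.7, 15.4 and 10.4 CPM and then at 19.0, 40.8 and 36.5 CPM (log2 value 1.22 ± 0.35, adjusted p = 0.116). MPK17.1 (LOC106405998) was at 48.0 ± 9.68 and 76.7 ± 4.96 CPM. Of 35 genes of these cascades 29 had positive log2 values, beside 49.4% of all genes. At an unadjusted p under 0.05, 6 were higher, beside 7.82%. By edgeR 0 were called, and by DESeq2 3 were higher, beside 1.9%. The median was 0.21, and 0.20 without LD replicate 1. In the single and double lines the median of this list was -0.04 and 0.04.

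WRKY factors, many of which act in defence and senescence, had 25 of 30 tested members with positive log2 values, beside 49.4% of all tested genes, and a median of 0.40 (0.58 without LD replicate 1). In 10 of them the SD1 libraries all lay above the LD libraries, beside 10.4% of all tested genes. None passed with edgeR or DESeq2, while 6 were higher and 1 lower at an unadjusted p under 0.05, beside 7.82% and 7.07% of all genes. WRKY26-1 and WRKY25-1, of smallest adjusted p in the list, had log2 values of 1.56 and 1.63 (adjusted p = 0.176 and 0.186). The most abundant member, WRKY70, had a log2 value of 0.77 (adjusted p = 0.382). WRKY40-1 (LOC106430771) was at 2.00, 2.22 and 1.52 CPM at LD and 13.6, 11.2 and 4.29 CPM at SD1 (log2 value 2.34 ± 0.82, adjusted p = 0.188). WRKY53-1 (LOC106441470), whose Arabidopsis counterpart is known from leaf senescence, was at 3.31, 3.81 and 6.20 CPM and then at 19.6, 21.2 and 11.2 CPM (log2 value 1.96 ± 0.92, adjusted p = 0.323). At SD2 it was at 0.897, 1.32 and 2.49 CPM, below its LD libraries. NAC factors, another family with members in stress and senescence, had a median of 0.48 over 33 genes (0.52 without LD replicate 1). Of these 4 were higher at an unadjusted p under 0.05, beside 7.82% of all tested genes, and none was called by edgeR or DESeq2. NAC69-1.1 and NAC41.1, of smallest adjusted p in the list, had log2 values of 2.17 and 1.21 (adjusted p = 0.223 and 0.232). The most abundant member, NAC5, had a log2 value of 0.22 (adjusted p = 0.812). NAC36.1 (LOC106428676) shows how 1 library set a call. It was at 10.02, 2.51 and 2.82 CPM at LD and 11.4, 15.8 and 8.07 CPM at SD1, with a log2 value of 1.20 (adjusted p = 0.288), or 2.14 without LD replicate 1 (adjusted p = 0.0457).

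Lipid genes had 19 of 23 negative log2 values, beside 49.8% of all tested genes, and a median of -0.13 (-0.22 without LD replicate 1). By edgeR 0 were called, and DESeq2 called 2 higher, beside 1.9% of all tested genes. At an unadjusted p under 0.05, 3 were higher and 3 lower, beside 7.82% and 7.07%. AAPT1 (LOC106436572), which makes phospholipids from diacylglycerol, was at 12.9, 5.05 and 8.01 CPM at LD and 14.1, 25.6 and 15.3 CPM at SD1 (log2 value 1.08 ± 0.32, adjusted p = 0.126), or 1.49 without LD replicate 1 (adjusted p = 0.0294). Other named genes that missed the edgeR threshold with all libraries and passed it without that one were AAP5-1, an amino acid permease gene, and UBQ10.2, a polyubiquitin gene often used as a reference, which were higher by 1.42 and 1.06 in log2, and LOC106352652, the 1 other gene with a name, which was lower at -0.71. Together with NIA2, GLN1.3, HsfA4a, NAC36.1 and AAPT1 this made 5 higher and 3 lower named genes. Over all tested genes 1.32% were higher and 0.614% lower without that library, whose choice favours such passes. The 7 usual reference genes had a median of 0.13 (0.17 without LD replicate 1) and 0 calls by edgeR or DESeq2. Beside 7.82% of all tested genes, 1 of the 7, UBQ10.2, was higher at an unadjusted p under 0.05. Among blue-light signalling genes the photoreceptor genes cry1 and cry2 and the gene of the ubiquitin ligase cop1 had log2 values of -0.13, -0.24 and 0.13, and none passed, with 0 at an unadjusted p under 0.05 and 0 by DESeq2.

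Plastid-encoded photosystem genes had 10 of 12 positive log2 values, beside 49.4% of all tested genes, and a median of 0.53 (0.71 without LD replicate 1). The plastid share given above was higher at SD1 too, but it leaves out genes with repeated symbols. None of the 12 was called by edgeR, and 3 were higher at an unadjusted p under 0.05, beside 7.82% of all tested genes. DESeq2 called 1 higher, beside 1.9%. Their summed level was 14.0, 14.4 and 5.73 CPM at LD and 16.7, 14.2 and 17.1 CPM at SD1, with overlap. LD replicate 3 was by far the lowest library. In the single and double lines the median of this list was 0.05 and -0.01. psbA, the D1 protein of photosystem II, was at 4.83, 3.34 and 1.10 CPM at LD and 6.88, 6.12 and 7.10 CPM at SD1 (log2 value 1.11 ± 0.45, adjusted p = 0.245). Whether plastid transcripts were captured alike in every library was not tested. Families that lay near the median of all genes, with all libraries, were the calcium sensor and kinase families (CBL and CIPK, 0.11 over 24 genes), calcium-dependent kinases (0.10 over 12), MYB factors (-0.08 over 14), carotenoid genes (0.14 over 13), sugar and starch genes (-0.08 over 11) and abscisic acid genes (0.00 over 9). Without LD replicate 1 their medians were, in that order, 0.22, 0.17, 0.07, 0.36, 0.23 and -0.002, beside 0.01 over all tested genes. The carotenoid and the sugar and starch medians then lay further from it. None of these families held a gene called by edgeR or DESeq2. At an unadjusted p under 0.05 they held, in that order, 0, 2, 2, 2, 4 and 1 genes, beside 7.82% higher and 7.07% lower of all tested genes. Other hormone families had medians of 0.41 for gibberellin (-0.12 without LD replicate 1), 0.34 for cytokinin (0.20) and 0.27 for salicylate, ethylene and jasmonate genes (0.24). They too had 0 calls by edgeR or DESeq2, and 0, 1 and 2 genes at an unadjusted p under 0.05.

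**Figure D4:**
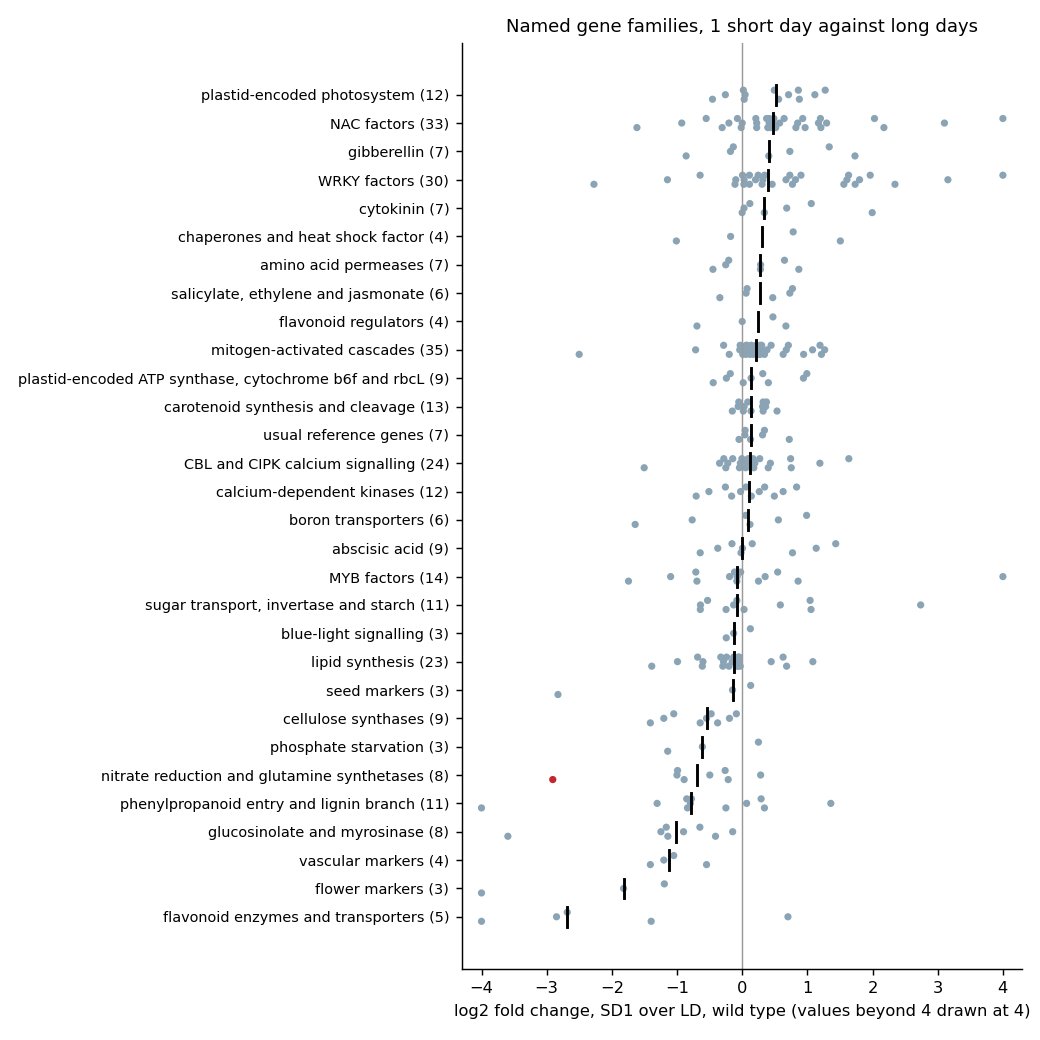
Log2 fold change of SD1 over LD in wild-type leaves for each tested gene of 30 families, ordered by the family median (black bar), with the number of tested genes in brackets. Each point is a gene, red where it passed an adjusted p of 0.05. NIA2 is the only red point, and the medians run from -2.68 for flavonoid enzymes to 0.53 for plastid-encoded photosystem genes.

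The same move was made by the mutant lines. Their libraries shared the filter, the scaling and the estimate of spread with the wild-type fit, but not the fold changes that chose the 81 genes. Of the 57 genes that rose in wild type, 42 had a positive log2 value in the single line and 55 in the double line, where 48.7% and 49.7% of all tested genes did. The median log2 values were 0.36 and 0.84, below the 2.17 in wild type, where the genes were chosen. Over all genes the lines called 193 (0.268%) and 195 (0.271%). Passing the threshold in the same direction as wild type were 7 of the 57 in each line, beside 0.211% and 0.236% of all genes. For the 24 genes that fell, 20 and 21 had negative values (49.9% and 49.7% of all genes), with medians of -0.48 and -0.45. Calls among them were 1 of 24 in the single line, beside 0.0569%, and 2 of 24 in the double line, beside 0.0347%. None of the 81 passed in the opposite direction in either line. Further list medians in the single and double lines were -0.49 and -0.46 for nitrogen genes and -0.84 and -0.51 for phenylpropanoid genes. They were -0.74 and -1.89 for flavonoid enzymes and transporters and -0.47 and -0.45 for vascular markers. WRKY factors had -0.04 and 0.25, NAC factors 0.78 and 0.07, and lipid genes -0.02 and -0.19.

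LOC106396121, LOC106404705, LOC106435863, LOC106367502 and LOC106374871 rose in all 3 genotypes, and they too were chosen after their values were seen. Counts of LOC106396121 and LOC106367502 correlated at 0.972 over the 27 libraries, and whether they share reads was not tested. LOC106396121 was at 7.39 to 10.6 CPM at LD and 23.4 to 36.6 CPM at SD1 in the single line (log2 change 1.73, adjusted p = 0.00398), and at 10.6 to 12.3 and 31.0 to 43.9 CPM in the double line (1.70, adjusted p = 0.00668). LOC106404705 rose from 0.163, 0.104 and 0.209 CPM to 2.06, 1.59 and 0.810 CPM in wild type, 3.20 in log2, and by 2.93 and 3.42 in the single and double lines. The other 3 rose by 1.43, 1.87 and 1.67 in wild type, by 1.51, 2.38 and 1.81 in the single line, and by 1.72, 2.18 and 1.89 in the double line. In LOC106396121 no SD1 library of any genotype overlapped an LD library of any genotype.

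LOC106446990 rose by 2.64 in wild type, while the single line had a log2 value of 0.51 (adjusted p = 0.532) and the double line 1.36 (adjusted p = 0.0677). NIA2 had values of -1.08 and -2.41 in the lines (adjusted p = 0.367 and 0.0556). In the double line its LD libraries ranged from 5.55 to 40.5 CPM, a wide spread. Tests of the difference itself called none of the 81 genes in either line. Over all genes the single line differed from wild type in 2 genes (0.00278%) and the double line in 0, by edgeR. At an unadjusted p under 0.05 the numbers over all genes were 4708 (6.54%) and 2822 (3.92%), and DESeq2 called 206 (0.298%) and 43 (0.0597%). Among the 81, the difference had an unadjusted p under 0.05 in 41 of the higher and 17 of the lower genes for the single line, and in 33 and 15 for the double line. DESeq2 called it in 20 and 5, and in 5 and 4. The wild-type values that chose the genes enter these differences, so large differences were favoured by the choice.

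**Figure D5:**
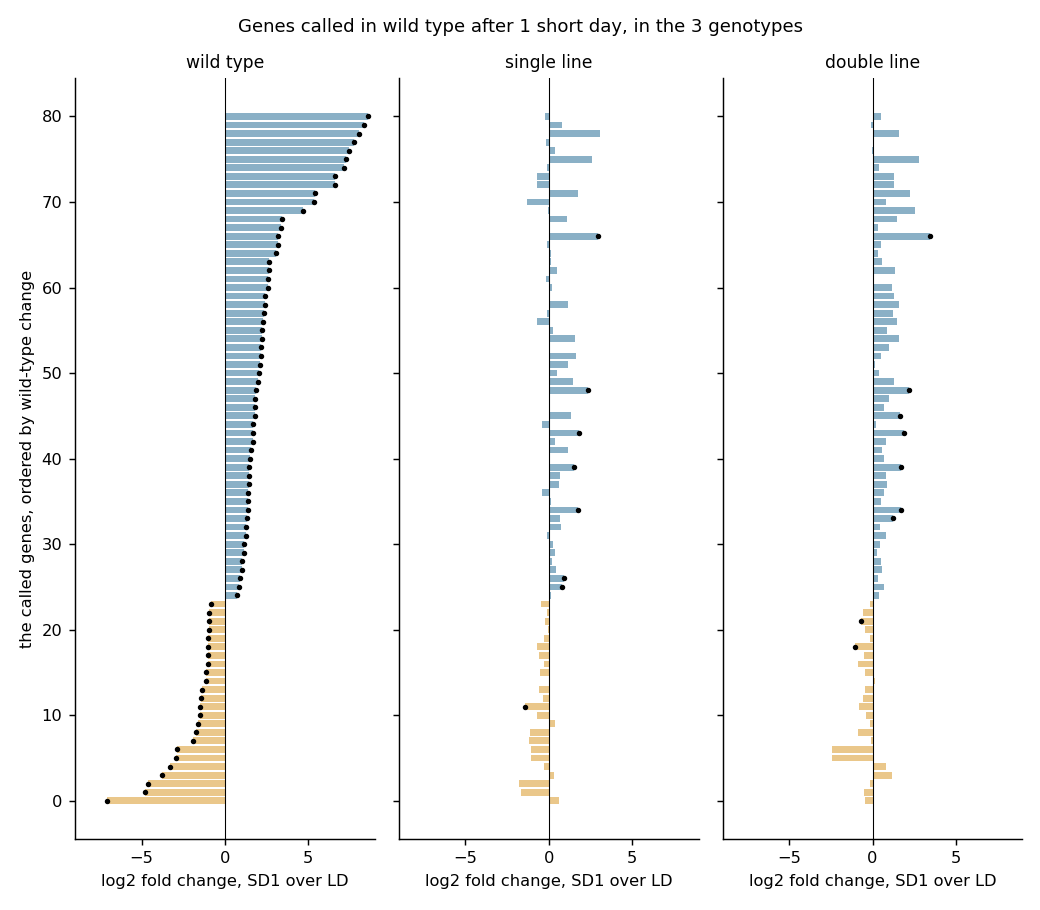
Log2 fold change of SD1 over LD for the 81 genes called in wild type, 1 bar per gene in the same order in each panel, in wild type, the single line and the double line. Dots mark an adjusted p under 0.05 in that genotype. Most bars of the lines point the way of wild type and are shorter, with 8 dots in the single line and 9 in the double line.

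On the second day the same wild-type genes were measured at SD2. The SD2 comparisons share the LD or the SD1 libraries with the comparison above, so the values are given side by side only. NIA2 was at 3.33, 2.22 and 2.18 CPM at SD2, between its LD and SD1 libraries. LOC106446990 was at 11.3, 11.4 and 10.5 CPM, also between them, and LOC106443971 at 17.7, 19.4 and 17.2 CPM. CHSB1, at 0.913, 2.79 and 1.63 CPM, lay below all of its SD1 libraries, as did PAL-BN-1, at 5.67, 7.11 and 8.88 CPM. Between SD2 and SD1, 2 of all tested genes passed (0.00278%) and none of the 81 did by edgeR. Among the 81, 12 higher and 11 lower genes had an unadjusted p under 0.05 there, beside 10.1% of all genes, and DESeq2 called 2 and 3, beside 0.536%. The SD1 values that chose the genes enter these differences too, so the choice favours such differences.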

How the data were processed

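Leaf RNA was taken up in TRIzol and made into libraries with a TruSeq kit, per the labels' protocols. Trim Galore served for trimming and HISAT2 for alignment, per the submitters' processing notes. The sources used here give no build, annotation or counting program. Counts per gene, not normalized, were deposited by the authors and used as they stand. FPKM values were also deposited by the authors, by a method not stated, and served to compare levels between genes. All 81 called genes had the same sign in FPKM. Those values come from the same libraries, so this is no separate support for the calls. Of 119533 entries 1 names no gene, at most 2.61e-05% of a library's counts, and was left out, as were genes at 0 everywhere. Symbols were matched to a RefSeq gene table (Da-Ae assembly, used for names and gene order only): 85844 matched, 480 nuclear genes had a name, and 237 organelle entries are named in the file.

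Genes were tested with edgeR 4.0.16 in R 4.3.3: TMM factors, a filter by group that kept 72039 genes, and 1 robust quasi-likelihood fit of all 27 libraries in 9 groups (18 residual degrees of freedom, common coefficient of biological variation 0.399). Adjusted p-values are Benjamini-Hochberg over all tested genes, and a gene was called under 0.05. CPM values are counts scaled to TMM-adjusted library size. Errors of log2 values are standard errors, derived from the test statistic. Depth was 49700646 to 58862542 counts, and how far depth or replicate spread limited the calls was not tested. DESeq2 1.42.0 was an alternative, with missing adjusted p-values left missing. Scripts were tested on simulated data. Correlations used log2 CPM with a pseudocount of 0.5. The replicate numbers do not pair libraries: deviations of same-numbered LD and SD1 libraries correlated at -0.0917, -0.224 and 0.0522.

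The members and gene lists were chosen with earlier results of these data known. The text names called genes with a symbol, the 2 unnamed genes of largest change in each direction among those at 1 CPM or more without overlap, the 5 most abundant called genes, and those called under every alternative. List members were drawn from the up to 3 of smallest adjusted p and the most abundant. Not every such member is printed, and some lists name none. Which of them are printed was decided with their values known. Others are marked in the text as picked with their values known. This also holds for WRKY53-1, MPK3.1, MyAP1, PAL2-1, NIA1, CesA7.1, NAC36.1 and LOC106352652, and for BiP, TT12, DFR, BNF5H1 and CCR2. No sequences are printed, since none was at hand. FAH results are not reported here.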

Additional observations from a re-analysis of the deposited data

Results flagged for a closer look

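The change from LD to SD1 differed between the single line and wild type in 2 genes, by the test of the difference in the edgeR fit, and neither is among the 81. LOC111210049 differed by 8.66 in log2 (adjusted p = 0.00559). It had no count in the 3 single-line LD libraries and was at 0.362 ± 0.183 CPM at SD1 there, while wild type went from 0.560 ± 0.156 to 0.219 ± 0.071 CPM. LOC106415655 differed by -6.86 in log2 (adjusted p = 0.00559). It was at 0.234 ± 0.062 CPM at LD and had no count at SD1 in the single line, and was at 7.52 ± 1.04 and 8.40 ± 4.06 CPM in wild type. Both log2 values rest on a group with no counts and depend on the prior count of the fit, so they are no measure of fold.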

How the results depend on the processing

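The number of genes called between SD1 and LD depended on the fit. With 57 higher and 24 lower as reported, DESeq2 gave 1315 and 1039, a fit of the 6 libraries alone 1 and 3, a fit of the 9 wild-type libraries 183 and 137, and a fit without the 3 double-line SD2 libraries 112 and 61. RLE size factors gave 55 and 24, no filter on low counts 46 and 13, and the replicate block 33 and 17; the numbers only name the libraries, so the block is no test of pairing. Leaving out 1 wild-type library gave 3 to 949 higher and 0 to 442 lower. In the other comparisons, as reported, with DESeq2 and over leave-one-out fits chosen after seeing the data, the calls were 193, 2159 and 7 to 182 for the single line, 195, 1745 and 0 to 434 for the double line, 4229, 8716 and 48 to 6075 for SD2 against LD, and 2, 371 and 0 to 2 for SD2 against SD1 (1 with the replicate block). For the differences from wild type they were 2, 206 and 2 to 12 for the single line, and 0, 43 and 0 to 2 for the double line. The cause of these shifts was not tested. Of 1220 values of single genes under alternatives, 1007 kept their direction and side of the threshold, 189 lost the call, 21 gained one and 3 changed sign: over leave-one-out fits CesA3.1 ran from -0.18 to 0.11 and GAPDH.2 from -0.29 to 0.17 in log2, neither called. Genes of low counts, such as those at 0 in 1 group, are the least certain, and the part of depth in this was not tested.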
